A study of Mus musculus and Homo sapiens with 59 samples.

Results

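The genes described here code for the core machinery of necroptosis and pyroptosis, the forms of cell death in which the plasma membrane is opened by a pore or a channel. They are the 9 genes Ripk1, Ripk3, Mlkl, Fadd, Casp8, Cflar, Casp1, Gsdmd and Ninj1, taken by symbol from the 19407 rows of the deposited mouse table and, as upper-case symbols, from the 22192 rows of the human table. All 9 had a row in both tables. The choice by symbol uses none of their measured values.

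In necroptosis, death receptors recruit the kinase RIPK1, which pairs with RIPK3, and RIPK3 phosphorylates MLKL, whose amino-terminal part then opens the plasma membrane. The adaptor FADD, the protease CASP8 and its catalytically inactive relative cFLIP (gene Cflar) sit on the same receptor complexes, where CASP8 starts apoptosis and cuts RIPK1 and RIPK3. In pyroptosis, inflammasomes activate the protease CASP1, which cuts GSDMD and so frees an amino-terminal fragment that forms pores, and NINJ1 afterwards breaks up the membrane of dying cells.

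RNA was measured in 59 libraries of 4 cell lines: 35 of NIH3T3 mouse fibroblasts, 16 of LLC mouse lung carcinoma cells, 4 of HT29 human colorectal carcinoma cells and 4 of BxPC3 human pancreatic carcinoma cells. Each of 15 treatments was set against its own untreated cells, with 2 libraries a group, except that NIH3T3 MLKL siPKC cells given AP20187 had 1. AP20187, a chemical dimerizer, was given at 100 nM for 1 h to NIH3T3 and LLC cells that carry residues 1 to 181 of human MLKL joined to the dimerizable domain 2Fv, and to parental NIH3T3 cells with no construct. NIH3T3 cells with this MLKL construct also received AP20187 in calcium-free DMEM, after siCTR or siPKC (the labels do not name the targets), and in noko or p65ko cells; all other groups were kept in DMEM. The tamoxifen metabolite 4OHT was given at 50 nM for 2.5 h to NIH3T3 and LLC cells that carry residues 1 to 276 of mouse GSDMD joined to a hormone-binding domain, and to parental LLC cells. The permeabilizing detergent digitonin was used on cells labelled as without a construct: the mouse lines received 55 µg/mL (3 h) and the human lines 40 µg/mL (2 h). The labels state neither the promoters of the constructs nor whether a line is 1 clone.

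The GSDMD construct ends at aspartate 276, the residue after which CASP1 cuts the mouse protein. Codon 276 is in capitals below, with 30 bases of the coding sequence on each side. The stretch is read from Gsdmd transcript ENSMUST00000023238.5 (1792 bases, 487 codons) and runs across the junction of exons 7 and 8 of 11, at chr15:75866146-75866327 on the + strand of mm10, with the intron left out.
Gsdmd codon 276: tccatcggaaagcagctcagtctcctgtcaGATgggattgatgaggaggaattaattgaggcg
The coding bases up to and including this codon number 828, which is 46.2% of the transcript. Reads from the construct and from the cell's own gene fall in the same row of the table and cannot be told apart there, and the row's TPM, the share of transcripts after division by their length, scales them by the full transcripts.

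Gsdmd was the only member whose level was set by a construct to this extent. Without 4OHT, the NIH3T3 GSDMD libraries held 1230 and 1135 TPM of Gsdmd, against 6.14 and 5.44 TPM in untreated parental cells. The LLC GSDMD libraries held 376 and 377 TPM without 4OHT, against 22.6 and 22.6 TPM in untreated parental cells. Levels in construct cells lay far above the parental ones in both lines. The ratio of the means was 204 in NIH3T3 and 16.7 in LLC cells, and the log2(TPM + 1) differences were 7.45 (SE 0.08, adjusted p = 1.14e-24) and 4.00 (SE 0.04, adjusted p = 3.22e-14). Since Gsdmd is what the construct supplies, this difference checks the labels and is no response. The row Mlkl shows no such excess in cells with the human MLKL construct: the untreated NIH3T3 MLKL libraries held 66.2 and 62.3 TPM, against 55.7 and 51.4 TPM in parental cells, and the untreated LLC MLKL libraries held 94.3 and 95.7 TPM, against 105.7 and 105.6 TPM. The smaller NIH3T3 difference in Mlkl still passed as higher in limma, and the LLC levels were lower by value.

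Across the 35 NIH3T3 libraries, the gene whose log2 level was most like that of Gsdmd among 9380 genes was Esr1, the gene of the estrogen receptor, with a Pearson r of 0.986. Hormone-binding domains that answer to 4OHT are taken from that receptor. Esr1 read 82.9 and 81.3 TPM in NIH3T3 GSDMD cells given 4OHT, against 126 and 145 TPM in untreated ones. In the other 31 NIH3T3 libraries it lay between 0 and 0.115 TPM. The likeness therefore rests on the 4 libraries with the GSDMD construct. Only through them did Esr1 reach the mean of 5 TPM asked of the genes compared. Esr1 lay between 21.2 and 22.5 TPM in the 4 LLC GSDMD libraries, against 0.673 to 1.60 TPM in the 8 parental and MLKL libraries of that line.

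**Figure D1:**
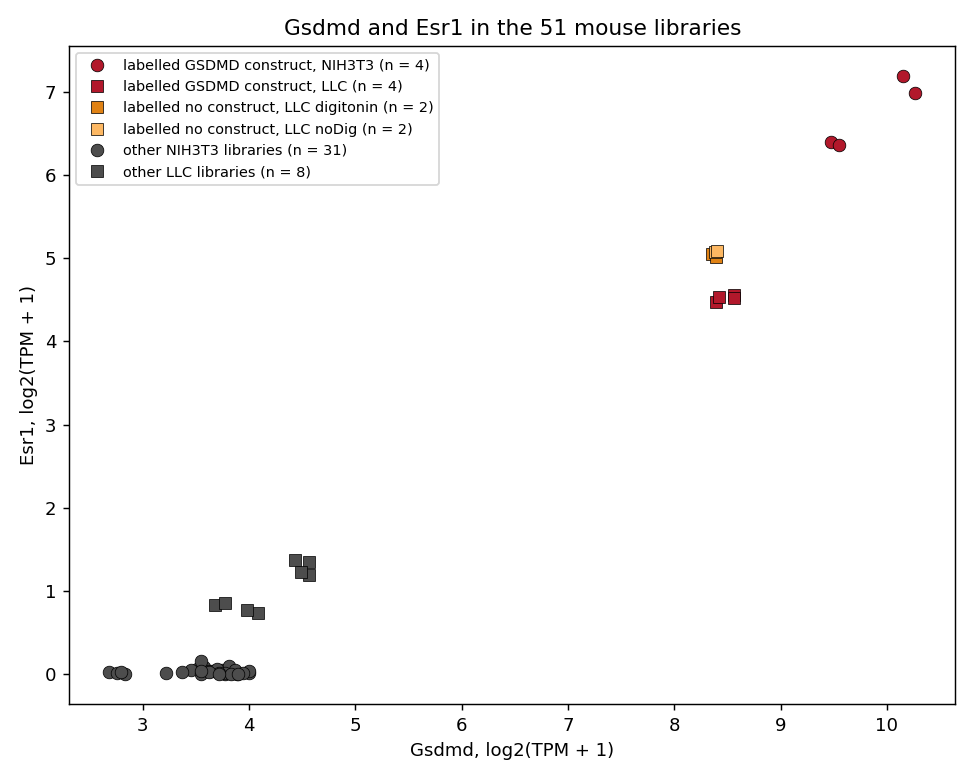
Each point is 1 of the 51 mouse libraries, placed by the log2(TPM + 1) level of Gsdmd (horizontal) and of Esr1 (vertical); circles are NIH3T3 and squares LLC libraries, and colours give the labelled construct or group. The 4 LLC libraries labelled as without a construct from the digitonin experiment (orange) sit with the libraries labelled GSDMD construct (red), apart from all other libraries.

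In the digitonin experiment the data went against a label. The LLC digitonin libraries, labelled as without a construct, held 326 and 336 TPM of Gsdmd, and the LLC noDig libraries (their untreated controls) 333 and 337 TPM. Esr1 lay between 31.3 and 33.0 TPM in these 4 libraries. These levels are those of cells with the GSDMD construct and not of LLC parental cells. Of 107 genes whose mean differed at least 4-fold between untreated LLC GSDMD and parental cells, 99 were nearer to the GSDMD cells in the noDig libraries. Casp1 was low in both, at 0.175 and 0.299 TPM in the noDig libraries and 0.236 and 0.0790 TPM in LLC GSDMD libraries, against 1.68 and 1.31 TPM in parental cells. The NIH3T3 noDig libraries resembled MLKL cells in Gsdmd (13.2 and 13.9 TPM) and Ripk3 (0.737 and 0.955 TPM), and 36 of 56 genes with a 4-fold difference were nearer to MLKL than to parental cells. Their Casp1 level (0.410 and 0.607 TPM) was that of parental cells (0.496 and 0.597 TPM) and not of MLKL cells (0 and 0.158 TPM). Each digitonin log2 difference in the mouse lines is within its own pair of groups and does not use the parental libraries. Its SE and p-value take their spread from all groups of the line, parental ones included.

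Other checks bear on all members alike. Across genes, which are not independent replicates, log2 levels of the 2 libraries of a group correlated between 0.985 and 0.994. The second untreated siCTR library stood apart in Rn45s (13244 TPM, against 412 TPM in the first) and Mir6236 (50961 against 4981 TPM). Rela, the gene of p65, lay between 13.6 and 19.9 TPM in p65ko libraries, against 49.2 to 94.8 TPM in noko libraries. NIH3T3 libraries held all 8 fibroblast markers at a mean of 1 TPM or more, and HT29 and BxPC3 libraries all 8 epithelial markers. LLC libraries held 3 of 7 epithelial markers at that level (291 to 543 TPM in sum, Esrp1 at 0) and 4 of 8 fibroblast markers (2751 to 4855 TPM in sum, Thy1 at 0). The summed macrophage markers lay between 12.3 and 98.9 TPM in mouse libraries, with Adgre1 and Aif1 at 0 in every LLC library, and between 17.7 and 29.9 TPM in human libraries. The comparisons with siCTR cells were refitted without small and ribosomal RNA rows. There 19 member values stayed on their side of the threshold, 1 newly passed and 1 no longer passed. The part of the other differences in the results below was not tested. The labels do not say whether the libraries of a group came from separate cultures, so p-values measure the spread between these libraries, which may be technical. An exact permutation test of 2 against 2 libraries cannot go below p = 0.333, so differences were tested in a limma fit over all genes. In RNA of whole cultures, fewer cells of a kind and less RNA per cell cannot be told apart.

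The members that moved in most treatments were Fadd, Ripk1, Casp8 and Mlkl. A gene counts as changed where limma's Benjamini-Hochberg adjusted p over all tested genes was under 0.05. Fadd fell in 10 of 15 comparisons and rose in none. Ripk1 rose in 10 and fell in 2, Casp8 fell in 9 and rose in none, Mlkl fell in 8 and rose in 1, and Cflar rose in 6 and fell in 1. Gsdmd rose in 2 and fell in 6, and Ninj1 rose in 1 and fell in 2. The Gsdmd falls include those of NIH3T3 and LLC GSDMD cells given 4OHT, where the construct sets the level of the row. The tested genes together shifted by a median log2 difference beyond -0.1 in 8 treatments, between -0.14 (siPKC) and -0.37 (BxPC3). Values with each library centred on its own median level are therefore given beside those as deposited. This centring does not remove the median difference in every treatment. That difference was 0.02 as deposited and -0.13 with centring in digitonin-treated NIH3T3 cells, and -0.25 and -0.10 in LLC GSDMD cells given 4OHT. With each library centred on its median gene, Fadd fell in 9 comparisons, Ripk1 rose in 10 and fell in 1, Casp8 and Mlkl fell in 6 each (Mlkl rose in 1), and Cflar rose in 9 and fell in none. Gsdmd then rose in 3 and fell in 2, and Ninj1 rose in 3 and fell in 1. The log2 differences share no untreated libraries between treatments.

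**Figure D2:**
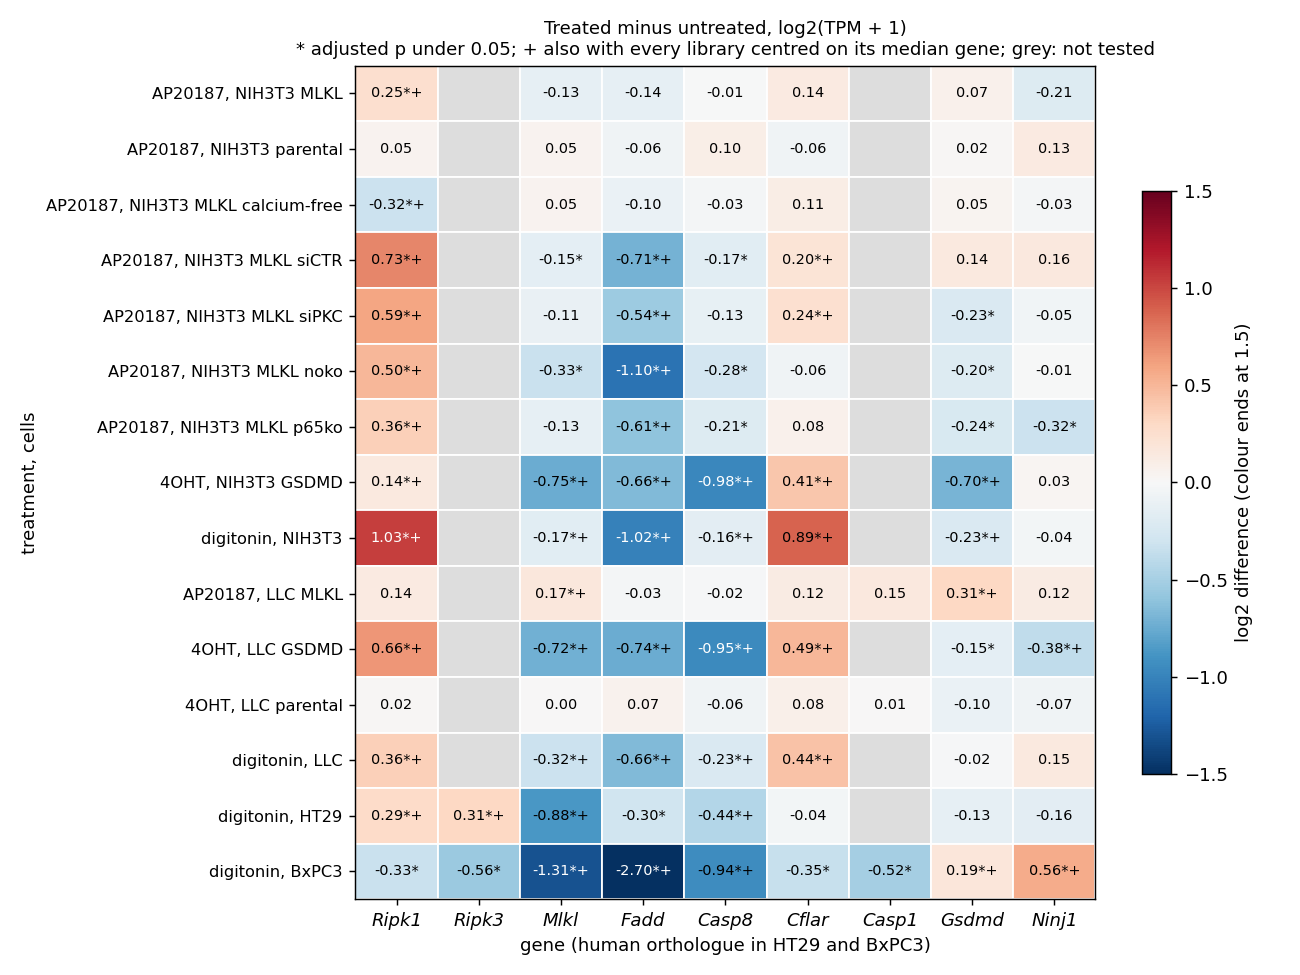
Each cell gives the log2(TPM + 1) difference, treated minus untreated, of a gene (columns) in 1 of the 15 treatments (rows); red is higher in treated cells, blue lower and grey not tested. An asterisk marks an adjusted p under 0.05, and a plus sign marks calls that also passed, in the same direction, with every library centred on its median gene: the Fadd column is blue from siCTR to digitonin-treated NIH3T3 cells, and the 2 parental rows hold no asterisk.

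In NIH3T3 MLKL cells given AP20187, 1 of 7 measured members rose and 0 fell, where 32.3% of 11644 tested genes passed, 15.8% upwards and 16.5% downwards. In calcium-free DMEM 0 rose and 1 of 7 fell, where 5.69% passed (2.27% up, 3.42% down). In siCTR cells 2 of 7 rose and 3 fell, against 65.6% of all genes (13.7% up, 51.8% down), and in siPKC cells 2 rose and 2 fell, against 48.1% (10.5% up, 37.5% down). In noko cells 1 rose and 4 fell, against 66% (10.6% up, 55.5% down), and in p65ko cells 1 rose and 4 fell, against 59.4% (8.99% up, 50.4% down). After 4OHT, 2 of 7 members rose and 4 fell in NIH3T3 GSDMD cells, against 78.6% (20% up, 58.6% down), and 2 of 7 rose and 5 fell in LLC GSDMD cells, against 82% (27.9% up, 54% down). In both GSDMD lines the members that fell include Gsdmd, whose row there is set by the construct. In LLC MLKL cells given AP20187, 2 of 8 rose and 0 fell, against 7.56% (5.48% up, 2.08% down). Digitonin gave 2 of 7 higher and 4 lower in NIH3T3, against 73.5% (39.3% up, 34.2% down), and 2 of 7 higher and 3 lower in LLC, against 52.5% (20.3% up, 32.2% down). It gave 2 of 8 higher and 3 lower in HT29, against 60.6% (16.5% up, 44% down), and 2 of 9 higher and 7 lower in BxPC3 cells, against 80.6% (23.7% up, 56.9% down). With these shares of all genes past the threshold, a count of members is a description and sets the members apart from no other genes. With centring, 4 members were higher and 1 lower in siCTR (28.8% of genes up, 26.3% down), 2 and 1 in siPKC (19% up, 20.3% down), 2 and 1 in noko (27.4% up, 23.4% down) and 2 and 1 in p65ko cells (22.7% up, 20% down). They were 3 and 4 in NIH3T3 GSDMD (34.7% up, 36.9% down), 2 and 4 in LLC GSDMD (34.8% up, 45.6% down), 3 and 2 in HT29 (28.8% up, 28% down) and 2 and 3 in BxPC3 cells (40.9% up, 37.1% down). The member split of NIH3T3 cells given digitonin stayed at 2 and 4, while that of all genes turned to 31.7% up and 45.7% down.

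In the parental cells given the same agents, no measured member passed. With AP20187 in parental NIH3T3 cells, 0 of 7 members passed in limma (0.304% of 11504 genes did, 0.0174% upwards and 0.287% downwards), and 0 of 7 had an unadjusted p under 0.05. With 4OHT in parental LLC cells, 0 of 8 passed (0.864% of 11110 genes did, 0.819% upwards and 0.045% downwards), and 1 of 8 had an unadjusted p under 0.05. Over all genes, 724 and 1271 had an unadjusted p under 0.05 in these 2 comparisons. The member log2 differences in parental cells lay between -0.06 (Cflar and Fadd) and 0.13 (Ninj1) with AP20187, and between -0.10 (Gsdmd) and 0.08 (Cflar) with 4OHT.

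**Figure D3:**
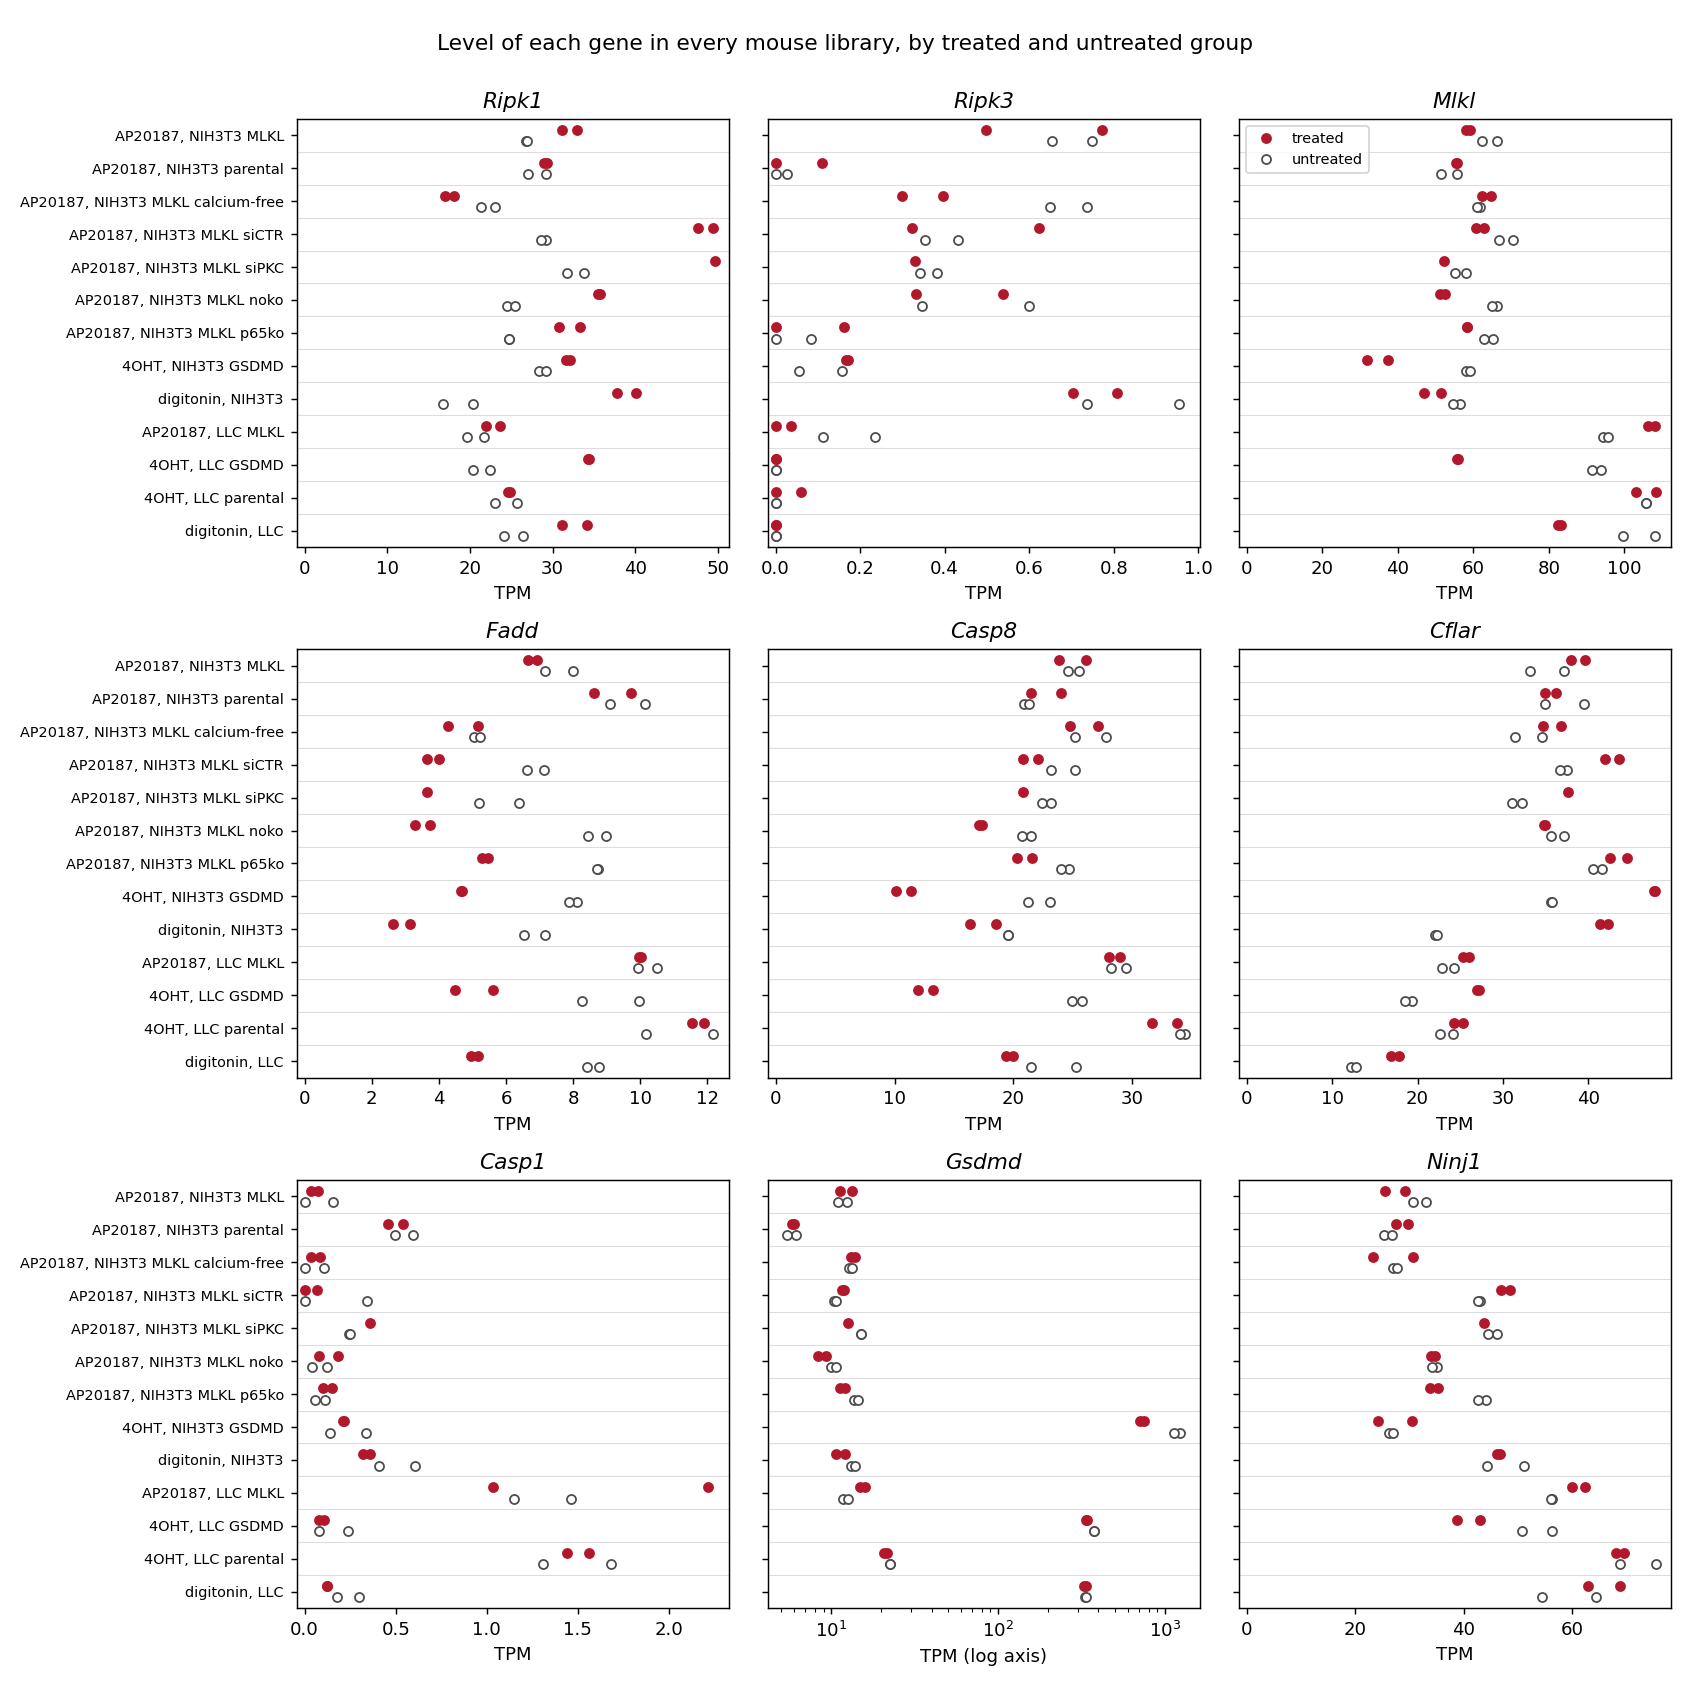
Each panel gives the TPM of 1 gene (horizontal axis, log axis for Gsdmd) in every mouse library, with the 13 mouse treatments down the page; filled red points are treated and open points untreated libraries. Fadd levels of treated libraries lie left of all their untreated ones in siCTR, siPKC, noko, p65ko, GSDMD and digitonin experiments. They also do so in NIH3T3 MLKL cells in DMEM, where the Fadd difference did not pass. Gsdmd stands at 326 TPM or more in the GSDMD rows and the LLC digitonin row.

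Ripk1 codes for the kinase that links death receptors to survival signalling, apoptosis or necroptosis. The gene lies on mouse chromosome 13 at 34002363 to 34037147 (mm10, ENSMUSG00000021408.15). It rose most with digitonin in NIH3T3 cells, with 37.7 and 40.1 TPM, against 16.7 and 20.4 TPM in noDig cells (log2 difference 1.03, SE 0.06, adjusted p = 3.38e-12). In siCTR cells it read 47.5 and 49.4 TPM with AP20187, against 29.2 and 28.6 TPM without (0.73, SE 0.06, adjusted p = 2.93e-09). In LLC GSDMD cells it read 34.5 and 34.3 TPM with 4OHT, against 22.5 and 20.3 TPM without (0.66, SE 0.07, adjusted p = 3.98e-06). In these experiments every treated library lay above every untreated one. The single siPKC library with AP20187 held 49.6 TPM of Ripk1, against 31.7 and 33.8 TPM in untreated siPKC cells (0.59, adjusted p = 3.27e-06). The noko cells held 35.8 and 35.5 TPM with AP20187, against 24.4 and 25.4 TPM without (0.50, adjusted p = 7.79e-07), and the p65ko cells 33.3 and 30.7 TPM, against 24.8 and 24.7 TPM (0.36, adjusted p = 6.81e-05). The rise was thus also present in cells labelled p65ko, and the difference between the p65ko and noko responses did not pass (-0.14, SE 0.09, adjusted p = 0.508). Nor did that between siPKC and siCTR (-0.14, SE 0.10, adjusted p = 0.415), a difference of responses in which 0 of 7 members passed in limma, 1 of 7 had an unadjusted p under 0.05, and 8.29% of genes passed (4.96% up, 3.33% down).

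In NIH3T3 MLKL cells the Ripk1 response to AP20187 differed between media. Parental cells were not given AP20187 in calcium-free DMEM, so MLKL dimerization and the agent itself cannot be told apart there. In DMEM, Ripk1 read 33.0 and 31.2 TPM with AP20187, against 26.7 and 26.9 TPM without (0.25, SE 0.06, adjusted p = 0.00466). In calcium-free DMEM it read 18.1 and 17.0 TPM with AP20187, against 23.0 and 21.4 TPM without (-0.32, SE 0.06, adjusted p = 0.00316). Treated libraries lay above untreated ones in DMEM and below them in calcium-free DMEM. The difference between the responses, calcium-free minus DMEM, was -0.57 (SE 0.09, adjusted p = 7.42e-05), and of the 7 members measured in it, where 21.9% of genes passed (10.8% up, 11.1% down), 1 fell and 0 rose. The separate responses are less firm. Without 1 of the treated DMEM libraries the rise no longer passed (0.21, adjusted p = 0.0570), and the fall no longer passed without 1 treated library (-0.28, adjusted p = 0.0621) or 1 untreated library in calcium-free DMEM (-0.27, adjusted p = 0.0740). The response in MLKL cells did not differ past the threshold from that in parental cells (0.20, SE 0.09, adjusted p = 0.128), and in that difference of responses 0 of 7 members passed in limma (20.5% of genes did, 12.4% up and 8.1% down) while 4 of 7 had an unadjusted p under 0.05.

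The remaining Ripk1 values were more mixed. In NIH3T3 GSDMD cells it read 31.6 and 32.1 TPM with 4OHT, against 28.3 and 29.2 TPM without (0.14, adjusted p = 0.0447). With each library centred on its median gene, the difference was 0.42 (adjusted p = 3.27e-06). As deposited, the call was lost whichever of the 4 libraries was left out (adjusted p = 0.0700 to 0.165). In LLC digitonin libraries Ripk1 read 34.2 and 31.1 TPM, against 26.4 and 24.1 TPM in noDig libraries (0.36, adjusted p = 0.00178). In LLC MLKL cells it read 22.0 and 23.7 TPM with AP20187, against 19.6 and 21.7 TPM without, which did not pass (0.14, SE 0.07, adjusted p = 0.325). RIPK1 moved in opposite directions in the human lines as deposited. It read 31.7 and 29.2 TPM in digitonin-treated HT29 cells, against 24.5 and 25.0 TPM in untreated ones (0.29, adjusted p = 0.00456), and 13.2 and 14.2 TPM in digitonin-treated BxPC3 cells, against 17.2 and 17.7 TPM (-0.33, adjusted p = 0.00153). With centring the HT29 rise was 0.46 and the BxPC3 value turned to 0.09, which did not pass (adjusted p = 0.139).

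Ripk3 codes for the kinase that phosphorylates MLKL, and it was barely present in the mouse lines. Its gene is on chromosome 14, at 55784995 to 55788865. Over the 35 NIH3T3 libraries it lay between 0 and 0.955 TPM with a median of 0.346 TPM, and over the 16 LLC libraries between 0 and 0.235 TPM with a median of 0. No mouse comparison had 2 libraries at 1 TPM, so Ripk3 was tested in none. By value it was higher in cells with the MLKL construct, at 0.654 and 0.749 TPM untreated, against 0.0279 and 0 TPM in parental NIH3T3 cells. It was lower in p65ko cells, at 0 and 0.0831 TPM untreated, against 0.346 and 0.599 TPM in noko cells. Both human lines held more RIPK3. Digitonin-treated HT29 cells held 4.72 and 4.31 TPM, against 3.41 and 3.48 TPM in untreated cells (0.31, adjusted p = 0.0371), a call lost without any of the 4 libraries (adjusted p = 0.0624 to 0.155). Digitonin-treated BxPC3 cells held 2.36 and 2.53 TPM, against 3.62 and 4.56 TPM (-0.56, adjusted p = 0.00174), and the centred value of -0.14 did not pass (adjusted p = 0.230).

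Mlkl codes for the executioner of necroptosis. It is on chromosome 8, at 111311797 to 111338177. In NIH3T3 GSDMD cells it read 37.3 and 31.8 TPM with 4OHT, against 58.1 and 59.0 TPM without (-0.75, SE 0.06, adjusted p = 1.02e-10). The LLC GSDMD cells held 55.9 and 55.6 TPM of Mlkl with 4OHT, against 91.4 and 93.9 TPM without (-0.72, SE 0.04, adjusted p = 4.94e-09). Both falls left the treated libraries well below the untreated ones, and both passed with centring (-0.47 and -0.57). In parental LLC cells the difference with 4OHT was 0.00 (SE 0.04), and the responses of GSDMD and parental LLC cells differed (-0.72, SE 0.05, adjusted p = 2.92e-07). In that difference of responses 2 of 8 members were higher and 4 lower, where 71.8% of genes passed (22.4% up, 49.4% down), and 2 higher and 3 lower with centring. Mlkl fell with digitonin in LLC libraries, with 82.5 and 83.3 TPM, against 108.1 and 99.5 TPM in noDig libraries (-0.32, adjusted p = 3.48e-05). In NIH3T3 cells Mlkl read 46.9 and 51.5 TPM with digitonin, against 56.5 and 54.7 TPM (-0.17, adjusted p = 0.00877), a call lost without 1 noDig library (-0.15, adjusted p = 0.0625) or 1 digitonin library (-0.11, adjusted p = 0.149).

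In cells with the MLKL construct, AP20187 moved the Mlkl row little. With AP20187 in DMEM, Mlkl read 59.1 and 57.9 TPM, against 66.2 and 62.3 TPM without, which did not pass (-0.13, SE 0.06, adjusted p = 0.0813). In noko cells it read 52.6 and 51.3 TPM, against 66.2 and 65.1 TPM (-0.33, adjusted p = 2.96e-05), but -0.10 relative to the median gene, which did not pass (adjusted p = 0.152). In siCTR cells it fell by 0.15 as deposited (adjusted p = 0.0241), a call lost without the first untreated (adjusted p = 0.167) or second treated library (adjusted p = 0.137), and the centred value was 0.04. In LLC MLKL cells it read 106.2 and 108.1 TPM, against 94.3 and 95.7 TPM (0.17, adjusted p = 0.0193), a call lost without any of the 4 libraries (adjusted p = 0.0743 to 0.137). The human MLKL gene fell in both lines. Digitonin-treated HT29 cells held 10.5 and 11.7 TPM, against 20.9 and 21.5 TPM in untreated cells (-0.88, SE 0.07, adjusted p = 4.51e-05). Digitonin-treated BxPC3 cells held 9.36 and 8.79 TPM, against 24.7 and 23.2 TPM (-1.31, SE 0.07, adjusted p = 2.17e-06). Treated levels were below untreated ones in both lines, and the centred values were -0.70 and -0.89.

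Fadd, the adaptor that brings CASP8 to death receptors, was the member that fell in most treatments. The gene lies on chromosome 7 at 144577318 to 144582463. In NIH3T3 cells it read 3.14 and 2.62 TPM with digitonin, against 7.16 and 6.52 TPM in noDig cells (-1.02, SE 0.09, adjusted p = 2.25e-09). In noko cells it read 3.74 and 3.30 TPM with AP20187, against 8.44 and 8.97 TPM without (-1.10, SE 0.09, adjusted p = 1.66e-09). In siCTR cells it read 4.01 and 3.63 TPM, against 7.14 and 6.64 TPM (-0.71, SE 0.09, adjusted p = 9.25e-07). Each of these groups lay wholly below its untreated cells. The fall was -0.54 in siPKC cells (3.64 TPM with AP20187, against 6.37 and 5.20 TPM without, adjusted p = 0.000483). It was -0.66 in NIH3T3 GSDMD cells (4.69 and 4.67 TPM with 4OHT, against 8.12 and 7.88 TPM without, adjusted p = 1.15e-06). It was -0.74 in LLC GSDMD cells (5.61 and 4.49 TPM, against 8.27 and 9.96 TPM, adjusted p = 2.56e-05). In the LLC digitonin libraries it was -0.66 (5.16 and 4.96 TPM, against 8.41 and 8.76 TPM, adjusted p = 0.000216). These falls all passed with centring, where they lay between -0.39 (NIH3T3 GSDMD) and -1.16 (NIH3T3 digitonin).

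Fadd read 5.29 and 5.47 TPM in p65ko cells given AP20187, against 8.74 and 8.72 TPM in untreated ones (-0.61, SE 0.09, adjusted p = 1.04e-05). The fall was smaller than in noko cells, by 0.50 (SE 0.13, adjusted p = 0.0322), and in this difference of responses 1 of 7 members passed, against 4.1% of genes (2.34% up, 1.76% down). That difference is marginal. It did not pass with centring (0.46, adjusted p = 0.0506), and it was lost without any 1 of 7 of the 8 libraries (0.43 to 0.54, adjusted p = 0.0627 to 0.166), the exception being the first noko library with AP20187. In the experiment without siRNA or knockout, Fadd read 6.66 and 6.93 TPM in MLKL cells given AP20187 in DMEM, against 7.16 and 7.99 TPM without (-0.14, SE 0.09, adjusted p = 0.280), and 9.96 and 10.03 TPM in LLC MLKL cells, against 10.5 and 9.94 TPM (-0.03, SE 0.10, adjusted p = 0.917). In calcium-free DMEM it read 5.18 and 4.27 TPM, against 5.05 and 5.21 TPM (-0.10, SE 0.09, adjusted p = 0.591). Fadd thus fell in 4 of the 7 experiments with MLKL cells given the dimerizer.

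In BxPC3 cells FADD showed the widest change of any member in the 15 treatments. Digitonin-treated cells held 4.87 and 5.67 TPM, against 39.1 and 40.03 TPM in untreated cells (-2.70, SE 0.07, adjusted p = 1.07e-07), and the centred difference was -2.28. In HT29 cells it read 34.1 and 35.4 TPM with digitonin, against 42.6 and 43.4 TPM (-0.30, adjusted p = 0.00625), and the centred value of -0.12 did not pass (adjusted p = 0.0965). The BxPC3 fall exceeded the HT29 fall (difference -2.40, SE 0.09, adjusted p = 6.12e-06, and -2.15 with centring). In this difference of responses 2 of 9 members were higher in BxPC3 and 7 lower, against 64.1% of all genes past the threshold (20.6% up, 43.5% down), and 2 higher and 3 lower with centring. CASP1, among the 7 lower, reached 1 TPM only in BxPC3 libraries, and its difference was 0.39 with a pseudocount of 0.1.

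**Figure D4:**
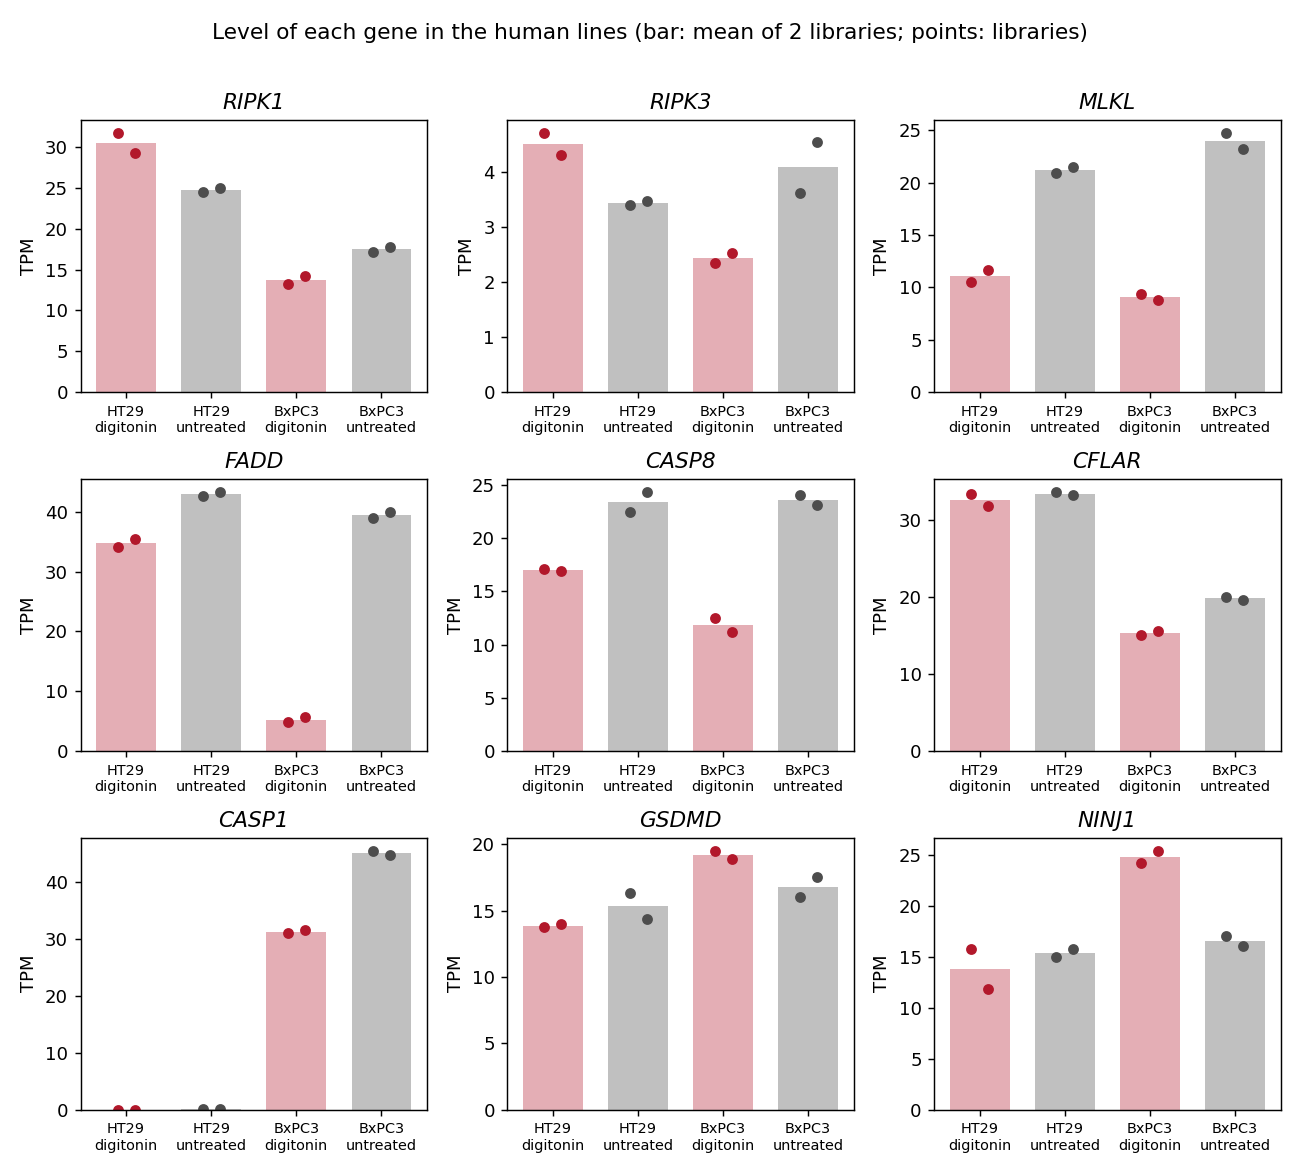
Bars give the mean TPM of 2 libraries and points the libraries, for digitonin-treated (red) and untreated (grey) HT29 and BxPC3 cells. FADD falls to 4.87 and 5.67 TPM in digitonin-treated BxPC3 cells, and CASP1 is near 0 in HT29 cells under both conditions.

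Casp8 and Cflar are neighbours on mouse chromosome 1, Cflar at 58711508 to 58758884 and Casp8 at 58795374 to 58847503, both on the + strand, and in GSDMD cells given 4OHT they moved in opposite directions. Casp8 codes for the initiator protease and Cflar for the protein that restrains it. In NIH3T3 GSDMD cells Casp8 read 10.1 and 11.4 TPM with 4OHT, against 23.1 and 21.3 TPM without (-0.98, SE 0.07, adjusted p = 4.10e-11). Cflar read 47.8 and 47.7 TPM in the same treated libraries, against 35.6 and 35.7 TPM (0.41, SE 0.05, adjusted p = 6.13e-07). Casp8 in LLC GSDMD cells read 13.2 and 12.0 TPM with 4OHT, against 24.9 and 25.7 TPM without (-0.95, SE 0.07, adjusted p = 6.61e-08). Cflar there read 27.0 and 27.2 TPM, against 19.4 and 18.5 TPM (0.49, SE 0.05, adjusted p = 1.62e-06). In both lines the treated and untreated groups lay apart for both genes. Relative to the median gene the values were -0.71 and -0.81 for Casp8, and 0.69 and 0.64 for Cflar. Parental LLC cells given 4OHT had differences of -0.06 and 0.08, and the responses of GSDMD cells differed from theirs for Casp8 (-0.89, SE 0.10, adjusted p = 6.49e-06) and Cflar (0.41, SE 0.07, adjusted p = 0.000247).

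With digitonin, Cflar read 41.4 and 42.3 TPM in NIH3T3 cells, against 22.0 and 22.3 TPM in noDig cells (0.89, SE 0.05, adjusted p = 3.38e-12). It read 17.8 and 16.8 TPM in the LLC digitonin libraries, against 12.3 and 12.7 TPM (0.44, adjusted p = 2.17e-05). Casp8 moved less, with 16.4 and 18.5 TPM in digitonin-treated NIH3T3 cells, against 19.6 and 19.6 TPM (-0.16, adjusted p = 0.0453). In the LLC digitonin libraries it read 19.4 and 20.0 TPM, against 25.3 and 21.5 TPM (-0.23, adjusted p = 0.0138). Both Casp8 calls were lost without single libraries: in NIH3T3 without either noDig library or the first digitonin library (-0.08 to -0.16, adjusted p = 0.111 to 0.415), and in LLC without the first noDig library (-0.12, adjusted p = 0.146) or the first digitonin library (-0.21, adjusted p = 0.0735). After AP20187, Cflar rose in siCTR cells (43.5 and 41.9 TPM, against 37.4 and 36.6 TPM, 0.20, adjusted p = 0.00295). It also rose in siPKC cells (37.6 TPM, against 32.2 and 31.0 TPM, 0.24, adjusted p = 0.00493). In noko cells it was at -0.06 as deposited and 0.17 with centring, where it passed (adjusted p = 0.0103). Casp8 fell as deposited in siCTR, noko and p65ko cells (-0.17, -0.28 and -0.21), but the centred values lay between -0.04 and 0.03, and none of them passed. As deposited, the siCTR call was lost without the first untreated (adjusted p = 0.274) or second treated library (adjusted p = 0.211), and the p65ko call without the first untreated (adjusted p = 0.0786) or first treated library (adjusted p = 0.115).

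In the human lines CASP8 read 17.1 and 16.9 TPM in digitonin-treated HT29 cells, against 22.4 and 24.4 TPM in untreated ones (-0.44, adjusted p = 0.00119). In BxPC3 cells it read 12.5 and 11.2 TPM with digitonin, against 24.0 and 23.2 TPM (-0.94, adjusted p = 1.14e-05). Treated levels lay below untreated ones in both lines. CFLAR read 33.4 and 31.9 TPM in digitonin-treated HT29 cells, against 33.7 and 33.2 TPM (-0.04, adjusted p = 0.509, and 0.14 with centring, adjusted p = 0.0228). In BxPC3 cells it read 15.1 and 15.6 TPM, against 20.0 and 19.7 TPM (-0.35, adjusted p = 0.000238). The direction of the BxPC3 value depends on the scaling, since it was 0.07 with centring (adjusted p = 0.132).

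Promoter windows of Ripk1 and Cflar, the members that rose in most comparisons, are printed because, of the member windows, these held a match to the interferon regulatory factor motif, 1 of 5 motifs searched. Each window holds 300 bases around an annotated start (RefSeq, GRCm38.p6, the build of mm10). Capitals mark the interferon regulatory factor motif (GAAA, any 2 bases, GAAA), searched on both strands, and in Cflar it lies on the other strand.
Cflar, chr1:58711241-58711540, + strand: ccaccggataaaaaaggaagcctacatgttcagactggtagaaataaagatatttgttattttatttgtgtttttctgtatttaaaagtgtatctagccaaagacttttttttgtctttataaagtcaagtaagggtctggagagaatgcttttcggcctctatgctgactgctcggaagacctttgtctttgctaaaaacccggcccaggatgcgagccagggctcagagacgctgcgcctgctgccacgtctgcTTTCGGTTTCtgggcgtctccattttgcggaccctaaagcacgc
Ripk1, chr13:34002624-34002923, + strand: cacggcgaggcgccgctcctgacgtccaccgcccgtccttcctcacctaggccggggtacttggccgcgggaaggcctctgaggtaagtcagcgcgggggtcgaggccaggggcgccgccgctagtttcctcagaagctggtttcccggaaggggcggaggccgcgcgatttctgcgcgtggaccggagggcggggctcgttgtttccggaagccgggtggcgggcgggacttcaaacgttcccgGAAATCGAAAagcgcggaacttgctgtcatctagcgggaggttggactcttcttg
The motif occurs in 3.44% of the 32851 mouse promoter windows of the same table. A table of these windows held 8 of the 9 members, with 2 starts for Ripk1, and Gsdmd had no entry. The other Ripk1 start and the windows of Casp8, Fadd, Mlkl, Casp1, Ninj1 and Ripk3 held no match. The NF-kB motif (GGGA, any 4 bases, CC), found in 20.7% of windows, the AP-1 motif TGANTCA (7.81%) and the EGR motif GCGGGGGCG (2.91%) matched no member window, which says only that these letters are not in them. The SP1 motif GGGCGG, found in 35.7% of windows, occurred at 7 places for Ninj1, 2 for Fadd, 1 for Ripk3 and for Ripk1 at 3 in the window not printed and 4 in the one printed. The interferon regulatory factor motif was singled out after the values were seen, and a match is a description and shows no binding.

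Casp1 codes for the inflammasome protease. It is on chromosome 9, at 5298517 to 5307265. It was at the low end of detection in NIH3T3 cells, between 0 and 0.607 TPM over 35 libraries, and was tested in no NIH3T3 comparison. LLC parental cells held 1.44 and 1.56 TPM with 4OHT, against 1.68 and 1.31 TPM without, and LLC MLKL cells 1.03 and 2.22 TPM with AP20187, against 1.46 and 1.15 TPM. The groups overlapped, and neither difference passed (0.01, SE 0.18, and 0.15, SE 0.19). CASP1 separated the human lines. It was listed at 0 in both digitonin-treated HT29 libraries, and untreated HT29 cells held 0.0922 and 0.0858 TPM. Digitonin-treated BxPC3 cells held 31.1 and 31.5 TPM, against 45.6 and 44.9 TPM in untreated BxPC3 cells (-0.52, SE 0.06, adjusted p = 0.000122), and the centred value of -0.10 did not pass (adjusted p = 0.156).

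The Gsdmd row fell with 4OHT in NIH3T3 cells that carry the construct, and in LLC cells its fall was small and rested on the scaling. The gene lies on chromosome 15 at 75862327 to 75867408. NIH3T3 GSDMD cells held 710 and 747 TPM with 4OHT, against 1230 and 1135 TPM without (-0.70, SE 0.08, adjusted p = 3.65e-08), and -0.42 relative to the median gene (adjusted p = 3.85e-05). LLC GSDMD cells held 336 and 342 TPM, against 376 and 377 TPM (-0.15, SE 0.04, adjusted p = 0.00463). With each library centred on its median gene, that difference was -0.00 (adjusted p = 0.946). The median difference of all tested genes in LLC GSDMD cells was -0.25 as deposited and -0.10 with centring. Parental LLC cells held 21.5 and 20.6 TPM with 4OHT, against 22.6 and 22.6 TPM (-0.10, SE 0.04, adjusted p = 0.374), and the responses of LLC GSDMD and parental cells did not differ past the threshold in Gsdmd (-0.05, SE 0.06, adjusted p = 0.424). In the LLC digitonin libraries, with 326 and 336 TPM against 333 and 337 TPM in noDig libraries, the difference was -0.02 (SE 0.04, adjusted p = 0.736).

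In cells with the MLKL construct, where Gsdmd comes from the cell's own gene, it rose in LLC and not in NIH3T3 cells. LLC MLKL cells held 16.0 and 14.8 TPM with AP20187, against 11.8 and 12.6 TPM without (0.31, SE 0.04, adjusted p = 0.000649), and the groups did not overlap. NIH3T3 MLKL cells held 11.3 and 13.4 TPM, against 12.4 and 11.0 TPM (0.07, SE 0.08, adjusted p = 0.508), with overlapping groups. The difference between these lines was not tested. In siPKC, noko and p65ko cells Gsdmd fell by 0.23, by 0.20 and by 0.24 as deposited. None of these passed with centring, where the values were -0.11, 0.03 and -0.04, and each was lost without either of 2 single libraries (adjusted p = 0.0966 and 0.0974 in siPKC, 0.155 and 0.225 in noko, 0.0824 and 0.0990 in p65ko cells). In siCTR cells Gsdmd was at 0.14 as deposited (adjusted p = 0.107) and passed with centring (0.33, adjusted p = 0.000764). With digitonin, NIH3T3 cells held 12.1 and 10.7 TPM, against 13.2 and 13.9 TPM (-0.23, adjusted p = 0.00962), lost without the second noDig (adjusted p = 0.0706) or second digitonin library (adjusted p = 0.145). GSDMD read 13.8 and 14.0 TPM in digitonin-treated HT29 cells, against 16.3 and 14.4 TPM (-0.13, adjusted p = 0.147). In BxPC3 cells it read 19.5 and 18.9 TPM, against 16.0 and 17.5 TPM (0.19, adjusted p = 0.0484), and 0.60 with centring (adjusted p = 0.000253). As deposited, the BxPC3 rise was lost without 3 of the 4 libraries (adjusted p = 0.0865 to 0.241).

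Ninj1, the protein that ruptures the membrane late in lytic death, changed in 3 treatments as deposited and in 4 with centring. The gene lies on chromosome 13 at 49187485 to 49196244. In LLC GSDMD cells it read 38.8 and 43.1 TPM with 4OHT, against 50.8 and 56.2 TPM without (-0.38, SE 0.08, adjusted p = 0.000913), and -0.23 with centring (adjusted p = 0.0345). In p65ko cells it read 35.3 and 33.8 TPM with AP20187, against 44.1 and 42.6 TPM (-0.32, adjusted p = 0.00841). That call was lost without the first untreated (-0.29, adjusted p = 0.0520) or second treated p65ko library (-0.29, adjusted p = 0.0567), and with centring (-0.13, adjusted p = 0.338). NINJ1 rose in BxPC3 cells, with 24.2 and 25.5 TPM with digitonin, against 17.1 and 16.1 TPM without (0.56, SE 0.12, adjusted p = 0.00354), and 0.97 with centring. Digitonin-treated HT29 cells held 15.8 and 11.9 TPM, against 15.0 and 15.8 TPM, with overlapping groups (-0.16, adjusted p = 0.281). The responses of the human lines differed for NINJ1 (0.71, SE 0.17, adjusted p = 0.00905). Ninj1 in NIH3T3 GSDMD cells read 24.2 and 30.5 TPM with 4OHT, against 26.2 and 26.9 TPM, and in digitonin-treated NIH3T3 cells 46.8 and 46.2 TPM, against 51.2 and 44.4 TPM. These groups overlapped, and neither difference passed as deposited (0.03 and -0.04). With centring the GSDMD value passed as a rise (0.30, adjusted p = 0.0103), and so did that of siCTR cells given AP20187 (0.35, adjusted p = 0.00564, and 0.16 as deposited, adjusted p = 0.167).

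Untreated cells already differed in these genes by construct, medium, siRNA and knockout. Among the members measured in NIH3T3 cells, Gsdmd in MLKL cells (12.4 and 11.0 TPM, against 6.14 and 5.44 TPM in parental cells) was higher by 0.90 (SE 0.08, adjusted p = 3.28e-09), and in LLC MLKL cells (11.8 and 12.6 TPM, against 22.6 and 22.6 TPM) it was lower (-0.83, SE 0.04, adjusted p = 2.17e-08). The construct cells lay on opposite sides of their parental cells. Of 7 measured members 4 were higher and 1 lower in NIH3T3 MLKL than in parental cells (51.7% of genes passed, 22.3% up and 29.4% down), and of 8 members 0 were higher and 5 lower in LLC MLKL cells (57.7%, 26.9% up and 30.8% down). In LLC GSDMD cells 1 of 8 members, Gsdmd, was higher and 6 lower (61.7%, 26.3% up and 35.5% down), led by Casp1, at 0.236 and 0.0790 TPM against 1.68 and 1.31 TPM in parental cells (-1.11, SE 0.18, adjusted p = 0.000241). Casp1 was tested there only because the parental libraries reached 1 TPM. In NIH3T3 GSDMD cells 1 of 7 was higher and 1 lower (55.2%, 29.7% up and 25.4% down). Fadd was lower in calcium-free DMEM than in DMEM, at 5.05 and 5.21 TPM against 7.16 and 7.99 TPM (-0.48, SE 0.09, adjusted p = 0.000260), and 0 of 7 members were higher and 2 lower there (36.3%, 8.55% up and 27.7% down). With centring, 2 were higher, Gsdmd (0.25, adjusted p = 0.0119) and Casp8 (0.18, adjusted p = 0.0358), and 2 lower (21.5% of genes up, 15.9% down). In siPKC cells 2 of 7 were higher and 2 lower than in siCTR cells (45.6%, 23.9% up and 21.7% down), with Gsdmd at 15.0 and 15.0 TPM, against 10.4 and 10.7 TPM (0.47, adjusted p = 3.04e-05). Ripk1, also higher there, did not pass without small and ribosomal RNA rows (0.13, adjusted p = 0.0944). In p65ko cells 4 of 7 were higher than in noko cells and 0 lower (47%, 31.8% up and 15.2% down), but with centring 1 was higher, Gsdmd (13.6 and 14.4 TPM, against 9.94 and 10.7 TPM, 0.41, adjusted p = 0.000163). Leaving out 1 library moved the number of members past the threshold to between 2 and 6 of 7 in NIH3T3 MLKL, 3 and 5 of 8 in LLC MLKL, 1 and 3 of 7 in NIH3T3 GSDMD and 1 and 3 of 7 in p65ko cells. The lowest counts came without the first untreated NIH3T3 MLKL library, the first untreated LLC MLKL library, either untreated NIH3T3 GSDMD library, and the second untreated noko or first untreated p65ko library.

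Levels of the members were also compared between untreated cells of different lines. Untreated LLC libraries labelled as without a construct had higher Mlkl, Ninj1, Casp8, Fadd, Ripk1 and Gsdmd and lower Cflar than the matching NIH3T3 libraries (6 of 8 measured members higher, 1 lower, where 85.1% of genes passed, 47.2% up and 37.8% down). The noDig libraries, which went against their label, move these values. Mlkl differed by 0.93, and by 0.97 in parental libraries alone, Ninj1 by 0.87 and 1.43, Casp8 by 0.46 and 0.67, and Cflar by -0.71 and -0.65, all past the threshold. Gsdmd differed by 3.16 with the noDig libraries and by 1.80 without them. Casp1, which among these reached 1 TPM only in LLC parental libraries, passed in parental libraries alone (0.69, adjusted p = 5.74e-05). The Ripk1 difference, 0.12 with the noDig libraries, was -0.20 without them (adjusted p = 0.00995). The Fadd difference of 0.24 was 0.19 without them and did not pass (adjusted p = 0.0710). With centring and the noDig libraries, 5 members were higher and 1 lower, where 44.1% of genes were higher and 40.6% lower, and Ripk1 did not pass (0.07, adjusted p = 0.174). In the human lines, untreated BxPC3 cells held more CASP1 than HT29 cells (45.6 and 44.9 TPM, against 0.0922 and 0.0858 TPM, log2 difference 5.41, SE 0.06, adjusted p = 2.04e-09). They held less CFLAR (20.0 and 19.7 TPM, against 33.7 and 33.2 TPM, -0.73) and RIPK1 (17.2 and 17.7 TPM, against 24.5 and 25.0 TPM, -0.48). The other 6 of 9 members did not pass, where 80.2% of all genes did (36.6% up, 43.6% down). CASP1 was tested here only through the BxPC3 libraries.

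On the TPM scale, Mlkl was the highest and Casp1 and Ripk3 the lowest members in untreated parental cells of both mouse lines, and the members between them came in another order in each line. In untreated parental NIH3T3 cells Mlkl was highest at 53.6 ± 3.08 TPM (SD, n = 2), then Cflar at 37.2 ± 3.24, Ripk1 at 28.1 ± 1.47 and Ninj1 at 26.1 ± 1.03. Casp8 at 21.1 ± 0.308, Fadd at 9.62 ± 0.741, Gsdmd at 5.79 ± 0.493, Casp1 at 0.546 ± 0.0714 and Ripk3 at 0.0139 ± 0.0197 TPM followed. The neighbours Ripk1 (29.1 and 27.1 TPM) and Ninj1 (25.3 and 26.8 TPM) lay close together, and no test of levels between genes was made. In untreated parental LLC cells Mlkl was again highest, at 105.7 ± 0.0141 TPM, followed by Ninj1 at 72.2 ± 4.79 and Casp8 at 34.2 ± 0.329 TPM. Ripk1 (24.4 ± 1.82 TPM), Cflar (23.4 ± 1.12 TPM) and Gsdmd (22.6 TPM) lay close together, above Fadd (11.2 ± 1.41 TPM), Casp1 (1.49 ± 0.264 TPM) and Ripk3, which was listed at 0.

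The lists of other genes of these pathways were chosen with earlier results of these data known. Of 25 genes of necroptosis and TNF receptor signalling, 23 were measured in NIH3T3 MLKL cells given AP20187, where 2 rose and 2 fell (median log2 difference 0.03, against -0.02 for all tested genes). Tnfaip3, which codes for the ubiquitin-editing enzyme A20, read 13.1 and 13.3 TPM there, against 0.639 and 0.714 TPM untreated (3.08, adjusted p = 6.16e-16). It also rose in LLC MLKL cells, with 9.38 and 10.3 TPM, against 2.20 and 2.53 TPM (1.69, adjusted p = 4.77e-07). In noko cells 3 of 22 rose and 13 fell (median -0.26, against -0.22), with the receptor adaptor Tradd at 11.2 and 11.2 TPM, against 22.3 and 21.2 TPM (-0.90, adjusted p = 4.75e-09). In NIH3T3 GSDMD cells 5 of 23 rose and 15 fell (median -0.28, against -0.29). The ubiquitin ligase gene Birc2 read 3.86 and 3.60 TPM there with 4OHT, against 13.04 and 11.8 TPM (-1.51, adjusted p = 4.23e-13), and the adaptor gene Ticam1 26.1 and 30.1 TPM, against 11.3 and 10.7 TPM (1.28, adjusted p = 1.11e-12). In LLC GSDMD cells 6 of 21 rose and 12 fell (median -0.21, against -0.25). With centring the splits became 2 higher and 7 lower in NIH3T3 MLKL, 8 and 8 in noko, 9 and 8 in NIH3T3 GSDMD and 7 and 10 in LLC GSDMD cells. Of all tested genes as deposited, 15.8% rose and 16.5% fell in NIH3T3 MLKL cells, and 10.6% and 55.5% in noko cells. These shares were 20% and 58.6% in NIH3T3 GSDMD cells, and 27.9% and 54% in LLC GSDMD cells.

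With digitonin, 10 of 22 genes of that list rose and 10 fell in NIH3T3 cells, where 39.3% of all tested genes rose and 34.2% fell. In LLC libraries 5 of 21 rose and 8 fell, where 20.3% of all tested genes rose and 32.2% fell. In HT29 cells 6 of 22 rose and 9 fell (median log2 difference -0.12, against -0.16 for all tested genes), and in BxPC3 cells 6 of 25 rose and 17 fell (median -0.50, against -0.37). Of all tested genes 16.5% rose and 44% fell in HT29 cells, and 23.7% rose and 56.9% fell in BxPC3 cells. With centring 10 were higher and 11 lower in NIH3T3, 5 and 9 in LLC, 8 and 7 in HT29 and 10 and 12 in BxPC3 cells. TNFAIP3 read 331 and 341 TPM in digitonin-treated BxPC3 cells, against 27.0 and 27.6 TPM (3.57, adjusted p = 2.17e-08), and the receptor gene TNFRSF1A 40.2 and 38.7 TPM, against 144 and 140 TPM (-1.82, adjusted p = 5.78e-08). In HT29 cells TNFAIP3 read 14.9 and 15.2 TPM, against 2.43 and 2.14 TPM (2.29, adjusted p = 2.47e-07). As deposited, the direction of TNFAIP3 was opposite to that of FADD in both human lines, and Tnfaip3 to Fadd in NIH3T3 GSDMD and noko cells. The HT29 fall of FADD did not pass with centring (-0.12, adjusted p = 0.0965). In NIH3T3 MLKL and LLC MLKL cells given AP20187, Tnfaip3 rose while the Fadd difference did not pass. Tnfaip3 was selected after its values were seen.

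Inflammasome and gasdermin genes were less often measured: 17 of 20 listed symbols had a row, and between 6 and 12 were tested in a comparison. The transcription factor gene Irf1 fell in NIH3T3 GSDMD cells, with 5.86 and 6.65 TPM, against 19.7 and 21.1 TPM (-1.56, adjusted p = 2.25e-11), and in LLC GSDMD cells, with 5.68 and 6.80 TPM, against 13.5 and 15.7 TPM (-1.11, adjusted p = 2.06e-07). Dfna5, another gasdermin gene, fell in LLC GSDMD cells, with 3.61 and 3.32 TPM, against 10.4 and 11.1 TPM (-1.40, adjusted p = 8.48e-07). In BxPC3 cells IL1A rose, with 126 and 134 TPM, against 49.3 and 47.3 TPM (1.41, adjusted p = 1.13e-06). Of this list 2 of 9 rose and 3 fell in NIH3T3 GSDMD cells, 1 of 6 rose and 4 fell in LLC GSDMD cells, and 2 of 12 rose and 7 fell in BxPC3 cells. The medians were 0.13 (all tested genes -0.29), -0.62 (-0.25) and -0.19 (-0.37). Of all tested genes 20% rose and 58.6% fell in NIH3T3 GSDMD cells, 27.9% and 54% in LLC GSDMD cells, and 23.7% and 56.9% in BxPC3 cells. The balance of the list depends on the scaling: with centring 5 of its genes were higher and 3 lower in NIH3T3 GSDMD, 1 and 4 in LLC GSDMD, and 7 and 4 in BxPC3 cells. In NIH3T3 MLKL cells given AP20187, 0 of 8 rose and 1 fell, where 15.8% of all tested genes rose and 16.5% fell.

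Among the 10 genes of extrinsic apoptosis, Bid, a CASP8 substrate, fell in LLC GSDMD cells, with 10.9 and 10.9 TPM, against 29.3 and 28.8 TPM (-1.34, adjusted p = 1.49e-09). It also fell in the LLC digitonin libraries, with 8.61 and 10.2 TPM, against 19.6 and 20.6 TPM (-1.02, adjusted p = 1.23e-07). The death receptor gene Tnfrsf10b rose in NIH3T3 MLKL cells, with 25.3 and 25.0 TPM, against 19.7 and 19.7 TPM (0.34, adjusted p = 0.000769), and TNFRSF10B in HT29 cells, with 65.4 and 64.9 TPM, against 27.1 and 27.7 TPM (1.22, adjusted p = 6.66e-07). In counts, 2 of 8 rose and 2 fell in NIH3T3 MLKL cells (of all tested genes 15.8% rose and 16.5% fell). In NIH3T3 GSDMD cells 3 of 8 rose and 5 fell (20% and 58.6%), and in LLC GSDMD cells 2 of 7 rose and 4 fell (27.9% and 54%). In HT29 cells 1 of 9 rose and 4 fell (16.5% and 44%), and in BxPC3 cells 1 of 9 rose and 3 fell (23.7% and 56.9%). With centring the BxPC3 balance turned to 6 higher and 2 lower (median as deposited 0.07, against -0.37 for all tested genes), and the splits were 2 and 2 in NIH3T3 MLKL, 3 and 4 in NIH3T3 GSDMD, 3 and 4 in LLC GSDMD and 1 and 3 in HT29 cells.

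For the members measured in NIH3T3 cells, the genes of most similar log2 level over the 35 libraries, among 9380 genes with a mean of at least 5 TPM, are given as a description, since libraries share treatments and scaling. For Ripk1 these were Yy1 (Pearson r 0.906), Baz1a and Ptpn12, for Mlkl Fam149a (0.933), Ccnd1 and Tcf3, and for Casp8 Dctd (0.915), Tcf3 and Orc2. For Fadd they were Ptrh2 (0.915), Wdr73 and Exosc7, for Cflar Trak2 (0.929), Abhd2 and Zc3hav1, and for Ninj1 Map3k11 (0.840), Rrp1 and Rrp7a. For Gsdmd, after Esr1, they were D430020J02Rik (0.969) and Cnbd2 (0.921). Whether these likenesses rest on the construct cells, as that of Esr1 does, was not tested. No member was among the nearest genes of another member.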

How the data were processed

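The authors deposited TPM per gene (transcript shares after division by length) for mouse and for human, and columns were matched to samples by name. Per the submitters' processing notes, Salmon did the quantification, with mm10 as the mouse and hg19 as the human build; the sources used here give neither its version nor its index. RNA was selected by polyA, per the labels' protocols. That the deposited values are TPM was inferred from the column totals, which lie between 999910 and 999989 in mouse libraries. TPM keep no sequencing depth, so depth is unknown and no counting error can be given.

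As the values are TPM and no counts, no count test was used, and differences of log2(TPM + 1) were fitted with limma 3.58.1 (trend) in R 4.3.3 (with data.table, version 1.17.8), in 1 model per mouse line and 1 for both human lines, with no term for replicate number. Genes entered a test if 2 or more of its libraries held 1 TPM or more, and p-values were Benjamini-Hochberg adjusted over all tested genes. There were 30 comparisons: 15 treatments, 6 differences between responses and 9 of untreated cells. The siPKC group of 1 library takes its spread from the other groups. Log2(TPM + 1) understates changes of low genes. The fit was tested on simulated data. Mouse positions are from GENCODE's mm10 annotation, and no human annotation was used. Alternatives were a pseudocount of 0.1, no filter, median centring, quantile normalization, libraries of the comparison only, a replicate block, and each library left out in turn. Leaving out the noDig groups or 452 small and ribosomal RNA rows was added after the data were seen. The members and lists were chosen with earlier results of these data known. Other pathway genes are named from the 4 list members of smallest p per comparison, selected among these after their values were seen. Figures were drawn with matplotlib 3.10.9.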

Additional observations from a re-analysis of the deposited data

Results flagged for a closer look

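Each result given here is a difference between responses, tested in limma with Benjamini-Hochberg adjustment over all genes, in log2(TPM + 1). The Ripk1 response to AP20187 was lower in calcium-free DMEM than in DMEM by a difference of -0.57. The Fadd response was higher in p65ko than in noko cells (0.50), a call that was lost when most single libraries were left out.

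Between LLC GSDMD and parental cells given 4OHT, the responses differed for Ripk1 (0.64), Cflar (0.41), Mlkl (-0.72), Casp8 (-0.89), Fadd (-0.81) and Ninj1 (-0.31). The Ninj1 difference did not pass with centring (-0.12, adjusted p = 0.435) or without any of 5 single libraries (adjusted p = 0.0518 to 0.113).

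Between BxPC3 and HT29 cells given digitonin, the responses differed for RIPK1 (-0.62), RIPK3 (-0.87), MLKL (-0.43), GSDMD (0.32), NINJ1 (0.71), CASP1 (-0.39), CASP8 (-0.50), FADD (-2.40) and CFLAR (-0.31). With centring, the differences of RIPK1, RIPK3, GSDMD, NINJ1 and FADD passed. The GSDMD difference was lost without any of 6 single libraries (adjusted p = 0.0523 to 0.0956). CASP1 was near 0 in HT29 cells, so its difference was tested only through the BxPC3 libraries.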

How the results depend on the processing

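Of 2429 recomputed member values, 2210 stayed on their side of the threshold, 52 newly passed, 153 no longer passed and 14 turned round. A value counts as turned round where its sign changed and it passed before or after. Values that passed in neither setting count among the 2210 even where their sign changed. Leaving out a library turned none round, and 88 calls no longer passed. The replicate numbers do not pair libraries by any label: deviations of equally numbered libraries correlated between -0.0471 and 0.133 over 13 comparisons, and 1 exceeded 0.1. The replicate block left 207 values on their side of the threshold, 4 newly passed, and 4 no longer passed. The last were Ripk1 in NIH3T3 GSDMD cells given 4OHT (adjusted p = 0.0506) and Gsdmd in siPKC cells given AP20187 (log2 difference -0.23). The others were GSDMD in digitonin-treated BxPC3 cells (adjusted p = 0.0710) and Fadd in untreated LLC GSDMD cells (adjusted p = 0.0594). No block was fitted for LLC MLKL cells given AP20187, whose numbers the labels do not give.

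With median centring, the values that turned round were Mlkl 0.043 and Casp8 0.026 in siCTR cells, Gsdmd 0.029 and Cflar 0.17 in noko cells, CFLAR 0.14 in HT29, and RIPK1 0.090 and CFLAR 0.072 in BxPC3 cells. With quantile normalization they were Gsdmd 0.11 in noko and 0.017 in p65ko cells, RIPK1 0.072 and CFLAR 0.059 in BxPC3 cells, and CASP1 0.055 between BxPC3 and HT29 responses. CASP1 there was 0.39 with a pseudocount of 0.1. Ripk1 between untreated LLC and NIH3T3 cells was -0.20 without the noDig groups. The cause was not tested.

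The number of members past the threshold moved as follows. With quantile normalization it was 2 in NIH3T3 MLKL, 3 in noko and 3 in p65ko cells. For differences of responses it was 2 for MLKL minus parental, 1 for siPKC minus siCTR, 0 for p65ko minus noko and 5 for BxPC3 minus HT29. For untreated cells it was 4 for calcium-free DMEM and 2 for p65ko. With median centring the same comparisons gave 3 in noko, 3 in p65ko, 5 in BxPC3, 1 for siPKC minus siCTR, 0 for p65ko minus noko, 5 for BxPC3 minus HT29, 4 for calcium-free DMEM and 1 for untreated p65ko cells. With libraries of the comparison only it was 0 in calcium-free DMEM, 3 for p65ko minus noko, 1 for untreated NIH3T3 GSDMD and 5 for untreated BxPC3 minus HT29. With no filter it was 0 for p65ko minus noko. Leaving out 1 library gave 0 to 2 in NIH3T3 MLKL, 0 to 1 in calcium-free DMEM, 3 to 5 in siCTR, 3 to 4 in p65ko and 1 to 1 in LLC MLKL cells. It gave 0 to 1 for MLKL minus parental, 1 to 2 for calcium-free minus DMEM and 0 to 1 for p65ko minus noko. In untreated cells it gave 1 to 3 for NIH3T3 GSDMD, 2 to 6 for NIH3T3 MLKL, 3 to 5 for LLC MLKL and 1 to 3 for p65ko. The Gsdmd excess of construct cells was 6.34 in NIH3T3 and 0.17 in LLC against the noDig libraries, in place of 7.45 and 4.00.

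The number of 2 libraries a group limits precision, TPM give no depth, and genes near 0 (Ripk3 in all mouse comparisons, Casp1 in those of NIH3T3 cells and some of LLC cells) were not tested.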
